A study of Mus musculus with 8 samples.

Results

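Mast cells of mouse skin were followed through 10 genes: Mcpt4, Cma1, Tpsb2, Tpsab1 and Cpa3 of the granule proteases, Hdc of histamine synthesis, the receptor genes Fcer1a, Ms4a2 and Mrgprb2, and the transcription factor gene Gata2. They were taken by gene name from a table of 56748 genes, each name matched 1 gene, and 10 of 10 were among the 18495 genes with enough counts to be tested. RNA of whole skin had been sequenced from 8 male mice aged 35 weeks. Of these, 5 were wild-type siblings (NPY +/+), and 3 were homozygous for a tetracycline-regulated Npy allele and are called NPY-tet (NPY tet/tet). The allele came from B6;129S4-Npytm2Rpa/J mice. Both groups went untreated, and the labels give no driver line or drug for the allele. Each library is 1 mouse, and the strain name gives a mixed C57BL/6 and 129 origin.

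Mast cells of connective tissue store proteases and histamine on a proteoglycan scaffold in their granules. They release them when IgE on its high-affinity receptor is crosslinked, or when basic peptides reach the receptor Mrgprb2. Chymases and tryptases are the main serine proteases of the granules, and carboxypeptidase A3 is stored with them. In skin these cells lie in the dermis near vessels, nerves and hair follicles, and Npy encodes neuropeptide Y, a transmitter of sympathetic nerves.

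Libraries held 31370433 to 47495565 counts. Npy stood at 0.159 to 0.502 CPM (counts scaled to library size, with TMM factors) in wild-type and at 304, 322 and 300 CPM in NPY-tet mice. Ribosomal RNA genes took 6.54% to 8.13% of counts in 5 libraries, NPY-tet replicate 1 and all wild-type ones but replicate 4. They took 0.0398% to 0.0759% in the other libraries. NPY-tet replicate 1 also had the lowest mean log2 CPM of 12 fibroblast markers, 7.10 against 8.21 to 8.67 in the other libraries. Markers of epidermal keratinocytes summed to 15000 to 23400 CPM in wild-type and 12500 to 20700 CPM in NPY-tet skin. Levels of a gene between mice are given in CPM, and levels of different genes are compared in the authors' FPKM, which are scaled to gene length as well.

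No mast cell gene passed the test between genotypes. By the quasi-likelihood test of edgeR at an adjusted p of 0.05, 0 of the 10 were called, against 0.00541% of all genes tested, which is 1 gene, Npy. At an unadjusted p under 0.05 there were 2 members, both lower in NPY-tet skin, the chymase genes Mcpt4 and Cma1, where 3.55% of all genes were lower, 2.43% higher and 5.98% either at that level. DESeq2, limma-voom and limma on log2(FPKM + 1) each called 0 members, against 0.368%, 0.0162% and 0.0108% of all genes. Fitted values were higher in NPY-tet skin for 5 members and lower for 5. The median log2 fold change of the 10 was 0.06, beside 0.004 for all genes tested. In whole-tissue RNA fewer mast cells and less RNA per mast cell cannot be told apart.

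Mcpt4 (ENSMUSG00000061068, chr14:56297086-56299770 in mm39, minus strand) encodes a chymase of connective tissue mast cells. It had 1470 to 3708 counts per library, the most of the 10. Its level was 67.6, 61.8, 77.4, 74.1 and 73.3 CPM in wild-type replicates 1 to 5, and 53.4, 39.8 and 51.4 CPM in NPY-tet replicates 1 to 3. All 3 NPY-tet mice lay below all 5 wild-type mice, and Mcpt4 was the 1 member whose groups did not overlap, where 1.98% of all genes tested were lower without overlap and 1.81% higher. The means were 70.8 ± 6.17 CPM (SD, n = 5) and 48.2 ± 7.32 CPM (SD, n = 3). This is a log2 fold change of -0.56 with an SE of 0.14, or 0.681 of the wild-type level. By edgeR's quasi-likelihood test its unadjusted p was 0.00155, the 52nd smallest of all genes tested, and its adjusted p was 0.535. By DESeq2 the adjusted p was 0.0609.

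Cma1 (chr14:56178908-56182132 in mm39, minus strand) lies on the same chromosome and encodes a second granule protease of the chymase family. It stood at 29.5, 27.1, 32.7, 32.8 and 27.5 CPM in wild-type replicates 1 to 5 and at 29.0, 17.8 and 21.9 CPM in NPY-tet replicates 1 to 3. NPY-tet replicates 2 and 3 lay below the wild-type range, and NPY-tet replicate 1 lay within it. The log2 fold change was -0.39 (SE 0.16) with an adjusted p of 0.795 by edgeR. Without NPY-tet replicate 1 it was -0.58, and without NPY-tet replicate 2 it was -0.23.

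**Figure D1:**
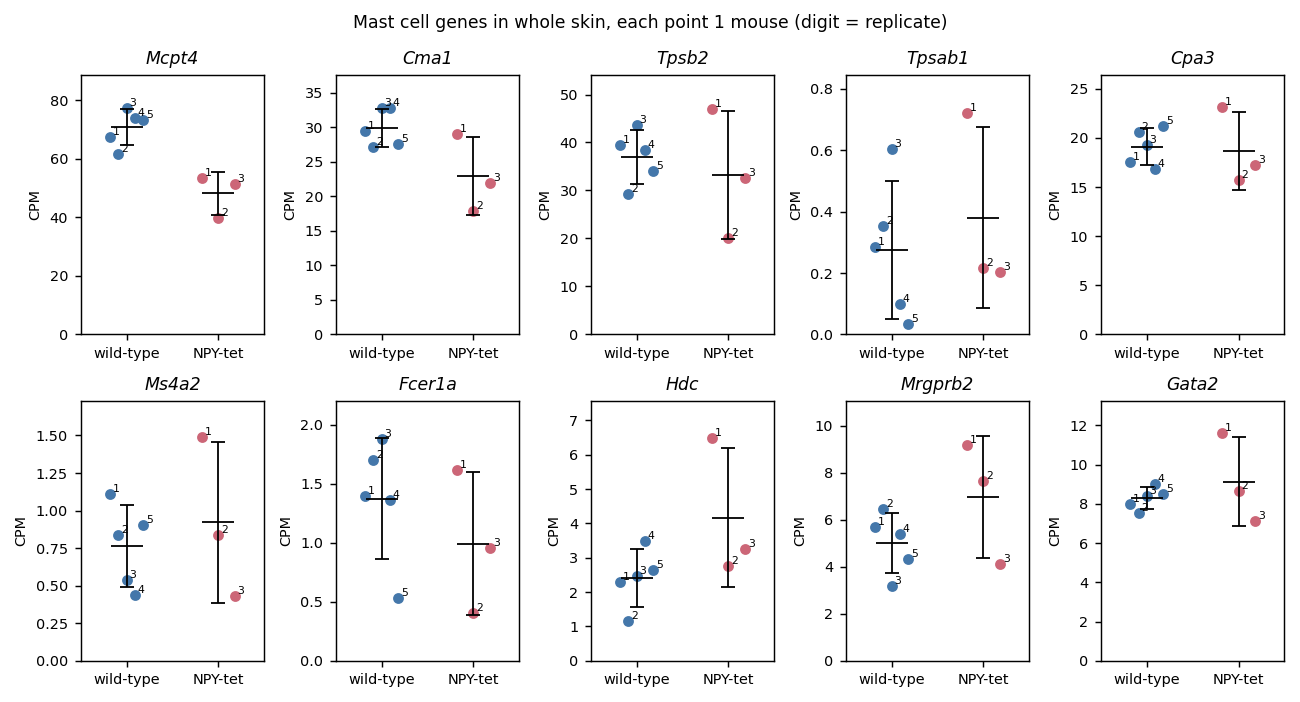
TMM-scaled CPM of the 10 mast cell genes by genotype, each point 1 mouse with its replicate number, with bars for mean ± SD (n = 5 and n = 3) and axes that start at 0. The groups are apart for Mcpt4, with NPY-tet mice at 39.8 to 53.4 and wild-type mice at 61.8 to 77.4 CPM, and they overlap for the other genes.

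Upstream sequence is shown for both chymase genes and for Cpa3, the protease whose level differed least between the genotypes, to set their proximal promoters side by side. The letters are the 250 bases before the RefSeq transcript start in GRCm38.p6, read 5′ to 3′ on the gene's strand. Capitals mark matches to the GATA motif, searched as AGATAA or as TGATAA or as AGATAG or as TGATAG on both strands with overlaps allowed.
Mcpt4, chr14:56062311-56062560, minus strand: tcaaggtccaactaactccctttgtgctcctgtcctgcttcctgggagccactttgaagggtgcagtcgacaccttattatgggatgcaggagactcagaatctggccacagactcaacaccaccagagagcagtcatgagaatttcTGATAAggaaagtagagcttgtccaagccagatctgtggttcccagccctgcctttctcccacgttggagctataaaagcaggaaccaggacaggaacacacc
Cma1, chr14:55944676-55944925, minus strand: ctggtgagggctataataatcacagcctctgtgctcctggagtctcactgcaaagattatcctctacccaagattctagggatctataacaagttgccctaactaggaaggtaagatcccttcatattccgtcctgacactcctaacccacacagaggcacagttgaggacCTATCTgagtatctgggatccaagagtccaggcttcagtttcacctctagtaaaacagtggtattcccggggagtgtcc
Cpa3, chr3:20242182-20242431, minus strand: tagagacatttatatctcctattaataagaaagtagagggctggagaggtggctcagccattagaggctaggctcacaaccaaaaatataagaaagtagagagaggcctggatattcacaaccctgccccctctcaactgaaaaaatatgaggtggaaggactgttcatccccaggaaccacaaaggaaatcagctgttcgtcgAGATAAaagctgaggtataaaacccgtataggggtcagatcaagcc

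Each of the 3 windows held 1 match, starting 103 bases before the transcript start in Mcpt4, 79 in Cma1 and 46 in Cpa3. RefSeq windows were found for 8 of the 10 genes, with 2 starts for Gata2, and 7 of these 9 windows held a match, as did 26.5% of all 32851 windows of that length. The Ms4a2 window held 3 matches, starting 224, 37 and 11 bases before the start, and the Gata2 windows held none. CATGTG, a motif bound by the mast cell factor Mitf, was in 1 of the 9 windows, that of Fcer1a, and in 12.3% of all windows. CACGTG was in 0 of the 9 and in 6.02% of all. The Fcer1a window also held 1 of the GATA matches. Unlike for the other member windows, the bases after it were not found near the start of any GENCODE M21 transcript of its gene. These matches describe letters and say nothing on occupancy in these mice.

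Tpsb2 (chr17:25585279-25588072 in mm39, plus strand) encodes the main tryptase of mouse mast cell granules. It stood at 39.5, 29.2, 43.7, 38.4 and 34.1 CPM in wild-type replicates 1 to 5. In NPY-tet replicates 1 to 3 it stood at 47.0, 20.2 and 32.5 CPM. The NPY-tet mice thus held both the highest and the lowest level of the 8, and the fitted log2 difference was -0.15 with an SE of 0.23 (adjusted p = 0.904, edgeR). It was -0.48 without NPY-tet replicate 1 and 0.11 without NPY-tet replicate 2.

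Tpsab1 (chr17:25562219-25564536 in mm39, minus strand) encodes a second tryptase, which C57BL/6 mice are known to lack because of a splice-site change in the gene. It had 9, 14, 18, 5 and 1 counts in wild-type replicates 1 to 5 and 28, 8 and 7 counts in NPY-tet replicates 1 to 3. The deposited FPKM of Tpsb2 were 85.6 to 212 times those of Tpsab1 in NPY-tet mice and 95.2 to 1340 times in wild-type mice. With so few counts the fitted log2 difference of 0.48 had an SE of 0.78 and an adjusted p of 0.909 by edgeR, and it was -0.36 without NPY-tet replicate 1. The strain origin of the alleles at this locus was not tested.

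Cpa3 (chr3:20269784-20296345 in mm39, minus strand), the carboxypeptidase of the granules, had the smallest fitted difference of the proteases. It stood at 17.6, 20.6, 19.3, 16.8 and 21.2 CPM in wild-type and at 23.2, 15.7 and 17.2 CPM in NPY-tet mice, which again held both ends of the range. The means were 19.1 ± 1.89 and 18.7 ± 3.93 CPM (SD), and the log2 fold change was -0.03 (SE 0.16; adjusted p = 0.975, edgeR). It was -0.21 without NPY-tet replicate 1, 0.08 without replicate 2 and 0.03 without replicate 3.

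By mean FPKM the proteases took the same order in both genotypes. In wild-type skin the mean FPKM was 63.2 ± 5.68 for Mcpt4, 27.1 ± 2.49 for Cma1, 22.9 ± 3.42 for Tpsb2, 12.5 ± 1.26 for Cpa3 and 0.130 ± 0.106 for Tpsab1 (SD, n = 5). In NPY-tet skin the mean FPKM was 43.0 ± 6.57, 20.8 ± 5.12, 20.6 ± 8.32, 12.2 ± 2.56 and 0.179 ± 0.139 (SD, n = 3). Mcpt4 lay above Cma1, and Tpsb2 above Cpa3, in 8 of 8 libraries. Cma1 lay above Tpsb2 in 6 of 8, which were all wild-type libraries and NPY-tet replicate 2. In NPY-tet replicates 1 and 3 Cma1 lay below Tpsb2, at 26.3 against 29.1 and 19.9 against 20.2 FPKM. The wild-type ranges of these genes overlapped, at 24.6 to 29.9 FPKM for Cma1 and 18.1 to 27.1 FPKM for Tpsb2. Below the proteases Mrgprb2 (2.39 ± 0.601 FPKM in wild-type skin), Gata2 (1.52 ± 0.107 FPKM), Fcer1a (1.36 ± 0.509 FPKM), Hdc (0.374 ± 0.131 FPKM) and Ms4a2 (0.268 ± 0.0952 FPKM) formed a row in which each overlapped the next.

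Of the FPKM summed over the 5 proteases, Mcpt4 took 48.9% to 52.2% in wild-type mice and 40.2%, 47.7% and 47.2% in NPY-tet replicates 1 to 3. The share of Cpa3 was 8.38% to 12.1% in wild-type and 11.5% to 13.7% in NPY-tet mice, and that of Cma1 was 19.9% to 22.8% and 20.4% to 22.2%. The ratio of Mcpt4 to Cpa3 in FPKM was 5.25, 4.10, 5.48, 6.04 and 4.74 in wild-type and 3.16, 3.47 and 4.09 in NPY-tet mice, which do not overlap but come within the last printed digit of doing so. Of 9 ratios between members that were computed, this one and Cma1 to Cpa3 had no overlap. These shares and ratios are descriptions, without a test.

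**Figure D2:**
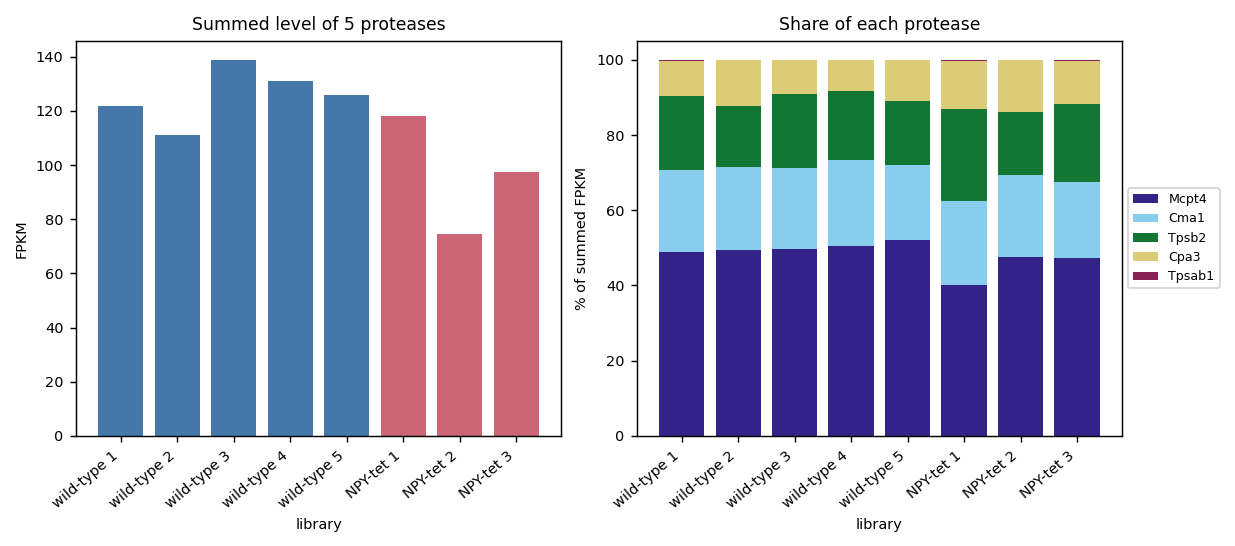
Left, FPKM summed over the 5 protease genes in each library (wild-type blue, NPY-tet red), and right, the percentage of that sum taken by each gene. The sum was 111 to 139 in wild-type mice and 118, 74.4 and 97.3 in NPY-tet replicates 1 to 3, and Mcpt4 has the largest share in every library.

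Hdc (chr2:126435587-126461219 in mm39, minus strand) encodes histidine decarboxylase, which makes histamine. It stood at 2.28, 1.16, 2.48, 3.50 and 2.64 CPM in wild-type and at 6.49, 2.76 and 3.26 CPM in NPY-tet replicates 1 to 3. NPY-tet replicate 1 was the highest, whereas the other NPY-tet mice lay within the wild-type range. Its log2 fold change of 0.79 (SE 0.37; adjusted p = 0.795, edgeR) was the largest of the 10 in size. It was 0.32 without NPY-tet replicate 1. Neutrophils and basophils can express Hdc too. Neutrophil markers summed to 21.0, 7.32 and 5.05 CPM in NPY-tet replicates 1 to 3 and to 5.77 to 7.33 CPM in wild-type skin. The high sum in NPY-tet replicate 1 came from S100a8 (10.4 CPM) and S100a9 (5.15 CPM), which keratinocytes can make too. The other 9 neutrophil markers summed to 5.51, 4.71 and 3.40 CPM in NPY-tet replicates 1 to 3. In wild-type skin they summed to 4.42 to 5.89 CPM. Csf3r was the largest part in every library, at 3.03 to 5.07 CPM. Retnlg stood at 0.798 CPM in NPY-tet replicate 1 and at 0.06 to 0.481 CPM in wild-type mice. Mpo had 10 and 12 counts in NPY-tet replicates 1 and 2 and 0 to 2 counts in wild-type mice. In NPY-tet replicate 1 alone Ly6g was found, with 2 counts. Elane and Cxcr2 lay within the wild-type range in that library, and Camp and Ltf had 0 counts. Ngp was at 0 in all 8 libraries. The 7 basophil markers summed to 24.6 to 29.7 CPM in wild-type and 22.5 to 29.9 CPM in NPY-tet mice, mostly Itga2 and Il3ra. The defining basophil protease gene Mcpt8 had 0 counts in 7 of 8 libraries and 2 counts in NPY-tet replicate 2. Prss34 had 2 to 16 counts and Cd200r3 4 to 22 counts per library. The part of neutrophils and basophils in the Hdc level was not tested.

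Among the receptors, Fcer1a (chr1:173048851-173054781 in mm39, minus strand) encodes the IgE-binding alpha chain of the high-affinity receptor. It stood at 1.40, 1.70, 1.88, 1.36 and 0.535 CPM in wild-type and at 1.62, 0.407 and 0.952 CPM in NPY-tet mice. Wild-type replicate 5 and NPY-tet replicate 2 were the lowest of the 8, at 16 and 15 counts. These mice also had the highest mean log2 CPM of hair shaft genes, 7.33 and 6.74, against -2.47 to 5.42 in the rest. NPY-tet replicate 1 came next in that score, at 5.42, with Fcer1a at 1.62 CPM. The part of hair growth in the Fcer1a level was not tested. The log2 fold change of -0.46 (SE 0.49; adjusted p = 0.858, edgeR) was 0.24 with the hair shaft score as a term and -1.01 or -0.09 without NPY-tet replicate 1 or 2.

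Ms4a2 (chr19:11592887-11601083 in mm39, minus strand), the signal-amplifying beta chain of the same receptor, had 15 to 58 counts per library. It stood at 1.11, 0.835, 0.536, 0.440 and 0.903 CPM in wild-type and at 1.49, 0.840 and 0.433 CPM in NPY-tet mice. The groups overlapped fully, with a log2 fold change of 0.28 (SE 0.48; adjusted p = 0.918, edgeR). It was -0.25 without NPY-tet replicate 1 and 0.61 without NPY-tet replicate 3. The alpha and beta chains thus had fitted values of opposite sign, each smaller than its SE. The shared gamma chain gene Fcer1g, which many myeloid cells also use, stood at 29.5, 35.2, 36.9, 43.9 and 34.1 CPM in wild-type and at 24.6, 23.1 and 20.8 CPM in NPY-tet mice. All NPY-tet mice lay below all wild-type mice (log2 fold change -0.66, SE 0.15), with adjusted p = 0.523 by edgeR and 0.0269 by DESeq2. Of all genes tested, 1.98% were lower without overlap. The 12 macrophage markers, cells that share the gamma chain, had a median log2 fold change of -0.42 with 10 of 12 fitted lower, and summed to 1200 to 1690 CPM in wild-type and 759 to 1240 CPM in NPY-tet mice. Their part in the Fcer1g value was not tested.

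Mrgprb2 (chr7:48200713-48207834 in mm39, minus strand) encodes the peptide receptor of mouse connective tissue mast cells, the counterpart of human MRGPRX2. It stood at 5.71, 6.46, 3.18, 5.38 and 4.35 CPM in wild-type and at 9.17, 7.64 and 4.12 CPM in NPY-tet mice. NPY-tet replicates 1 and 2 lay above every wild-type mouse and NPY-tet replicate 3 lay within the range. The log2 fold change was 0.48 (SE 0.29; adjusted p = 0.800, edgeR). It was 0.24 without NPY-tet replicate 1 and 0.75 without NPY-tet replicate 3. Mrgprb1, a gene of the same receptor family, stood at 2.89, 1.87, 1.88, 2.64 and 2.11 CPM in wild-type and at 6.98, 3.04 and 2.34 CPM in NPY-tet mice, with a log2 fold change of 0.85 (SE 0.35; unadjusted p = 0.0304, adjusted p = 0.795, edgeR). Of 7 peptide genes listed as possible inputs to Mrgprb2, Npy and Calca were tested, and Calca stood at 0.610 ± 0.353 and 0.608 ± 0.175 CPM.

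Gata2 (chr6:88170873-88184014 in mm39, plus strand), a transcription factor gene that mast cells need, is also used by endothelium. It stood at 8.02, 7.52, 8.38, 9.0 and 8.53 CPM in wild-type and at 11.6, 8.67 and 7.12 CPM in NPY-tet mice. NPY-tet replicate 1 was the highest and NPY-tet replicate 3 the lowest of the 8, and the log2 fold change was 0.14 (SE 0.18; adjusted p = 0.885, edgeR). It was -0.06 without NPY-tet replicate 1 and 0.30 without NPY-tet replicate 3. The 8 lymphatic endothelium markers summed to 111 to 136 CPM in wild-type mice. In NPY-tet replicates 1 to 3 they summed to 156, 107 and 94.7 CPM, with 6 fitted higher and 2 lower. The 9 blood endothelium markers summed to 307 to 444 CPM in wild-type mice. In NPY-tet replicates 1 to 3 they summed to 388, 243 and 377 CPM, and 7 of the 9 were fitted lower. The part of endothelium in the Gata2 level was not tested. Gata2 lies on chromosome 6, as does Npy.

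**Figure D3:**
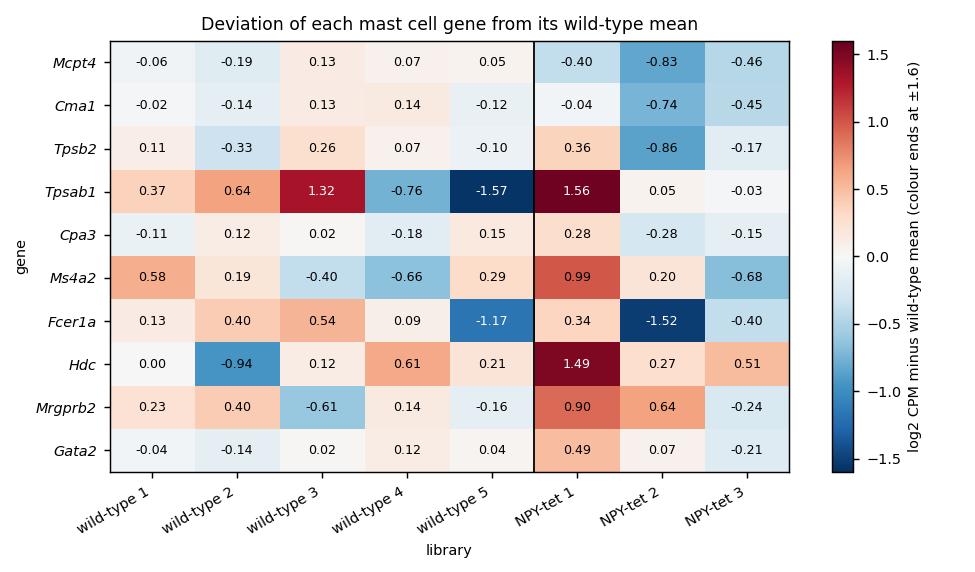
Log2 CPM of each gene minus its mean over the 5 wild-type mice, by library (prior count of 2, red above and blue below). NPY-tet replicate 1 reaches 1.49 for Hdc while Mcpt4 is at -0.40, -0.83 and -0.46 in the 3 NPY-tet mice.

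Seen by mouse, NPY-tet replicate 1 had the highest level of the 8 for 7 of the 10 genes (Tpsb2, Tpsab1, Cpa3, Ms4a2, Hdc, Mrgprb2 and Gata2), and NPY-tet replicate 2 had the lowest for 5 (Mcpt4, Cma1, Tpsb2, Cpa3 and Fcer1a). The median deviation of the 10 genes from their wild-type means was 0.42, -0.11 and -0.23 on the log2 scale in NPY-tet replicates 1 to 3, against -0.03 to 0.13 in wild-type mice. Without NPY-tet replicate 1 the median log2 fold change of the 10 was -0.31, with 8 fitted lower and 2 higher, and 0 passed the test. Mcpt4 was then at -0.63. Within the libraries rich in rRNA, with NPY-tet replicate 1 and 4 wild-type mice, the mean log2 CPM differed by -0.39 for Mcpt4, -0.01 for Cma1 and 1.64 for Hdc. Within the rRNA-poor libraries, where the wild-type arm is replicate 4 alone, it differed by -0.71, -0.73 and -0.22. The sign was the same in both sets for 5 members and opposite for 5. Cma1 is among the former only by its -0.01, and its fitted log2 fold change in the rRNA-rich libraries was 0.01.

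**Figure D4:**
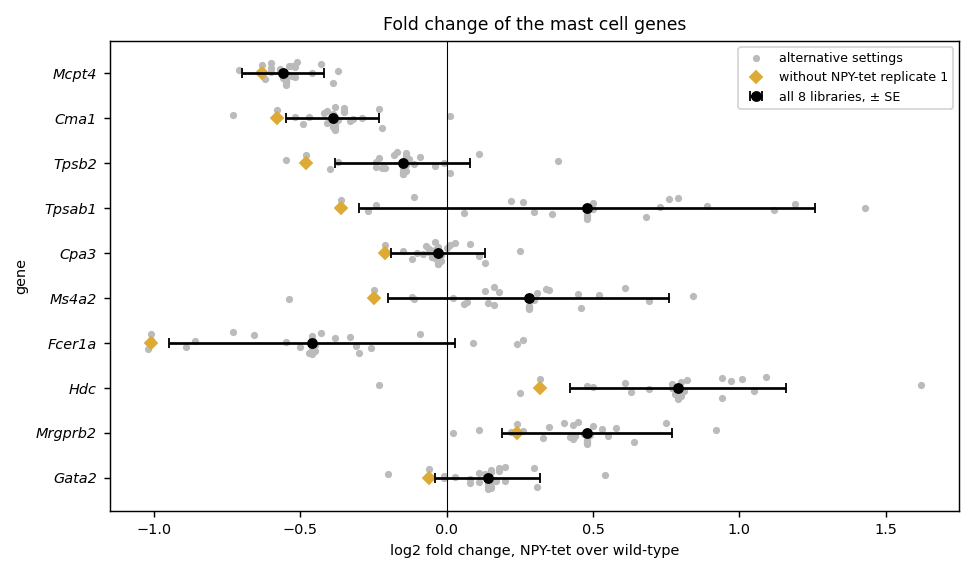
Log2 fold change of each gene, NPY-tet over wild-type, from all 8 libraries with its SE (black), without NPY-tet replicate 1 (yellow) and under the alternative settings (grey). Mcpt4 lies below 0 in every setting shown, from -0.71 to -0.37, and Mrgprb2 above 0, from 0.02 to 0.92, whereas the other 8 genes have values on both sides.

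Other genes of mast cell function were described from 8 lists of 96 gene entries, of which 84 were tested. By edgeR 0 passed over all genes, against 0.00541% of all genes tested. By DESeq2 1 passed (Fcer1g), which is 1.19% of the 84, against 0.368% of all genes. At an unadjusted p under 0.05, 9 were lower, or 10.7% against 3.55% of all genes, and 1 was higher, or 1.19% against 2.43%. Of the 9 lower ones, 4 were in the list of signalling below the IgE receptor, several of which other leukocytes use too. At the same level 6 of the 12 macrophage markers were lower and 1 was higher. The part of other leukocytes in the 9 was not tested.

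Among protease relatives, 7 of 14 were tested and their median log2 fold change was -0.03. The mucosal mast cell protease genes Mcpt1 and Mcpt2, and their relative Mcpt9, were at or near 0. Mcpt1 had 1 count in all, and Mcpt2 and Mcpt9 had 0 counts in all 8 libraries. A gene at 0 counts could still be at up to 0.0104 CPM over the libraries together (3 counts, counting error only). The transmembrane tryptase gene Tpsg1 stood at 1.70 ± 0.579 and 1.63 ± 0.507 CPM. Gzmb, a granzyme of cytotoxic lymphocytes that mast cells can also make, stood at 0.254 to 1.28 CPM in wild-type and 0.0813 to 0.288 CPM in NPY-tet mice (log2 fold change -2.10, SE 0.62; unadjusted p = 0.00586, adjusted p = 0.649, edgeR), with 3 to 10 counts in each NPY-tet library.

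Genes of the granule matrix and amine storage had a median log2 fold change of 0.01 over 17 tested, and 0 had an unadjusted p under 0.05. Maob, which breaks down amines, stood at 50.4 ± 10.8 and 38.8 ± 9.74 CPM, and the serotonin transporter gene Slc6a4 at 23.5 ± 2.91 and 28.8 ± 7.37 CPM. Srgn, the serglycin core protein to which the proteases bind, stood at 17.0 ± 2.50 and 14.4 ± 2.67 CPM. Slc18a2, the vesicular amine transporter, stood at 1.87 ± 0.281 and 2.29 ± 1.34 CPM, and Tph1, which starts serotonin synthesis, at 0.878 ± 0.324 and 1.46 ± 1.26 CPM. Both had their highest level in NPY-tet replicate 1, at 3.76 and 2.88 CPM. The 8 genes of lipid mediators had a median of -0.02, and 0 had an unadjusted p under 0.05. Among them Alox5ap, which serves leukotriene synthesis, stood at 14.3 ± 3.45 and 12.7 ± 2.07 CPM.

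The list of growth and surface receptors had a median of -0.07 over 16 tested. Kit, the receptor for stem cell factor on mast cells and melanocytes, stood at 11.1, 10.4, 11.8, 8.80 and 20.7 CPM in wild-type and at 24.3, 16.6 and 10.6 CPM in NPY-tet mice (log2 fold change 0.46, SE 0.31; adjusted p = 0.808, edgeR). Its 3 highest libraries, NPY-tet replicates 1 and 2 and wild-type replicate 5, were also the 3 with the highest hair shaft score. Melanocyte markers summed to 13.3 to 106 CPM in wild-type mice and to 24.8, 98.3 and 18.1 CPM in NPY-tet replicates 1 to 3, and their part in the Kit level was not tested. C5ar1, the complement C5a receptor, stood at 16.2 ± 2.31 and 11.1 ± 3.49 CPM (unadjusted p = 0.0252, adjusted p = 0.795, edgeR). The 7 tested growth factors and attractants had a median of 0.03. The smallest p was that of the cytokine gene Tgfb1, at 58.3 ± 8.05 and 45.7 ± 10.7 CPM (log2 fold change -0.35; unadjusted p = 0.0664, adjusted p = 0.795, edgeR). Tslp stood at 1.16 ± 0.340 and 0.894 ± 0.425 CPM, Il33 at 23.0 ± 6.08 and 26.1 ± 2.55 CPM, and the Kit ligand gene Kitl at 15.9 ± 3.58 and 16.2 ± 4.17 CPM.

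Genes of signalling below the IgE receptor had a median of -0.21 over 15 tested, with 12 fitted lower and 3 higher. Those with the smallest p were Orai1, the calcium channel of store-operated entry, at 54.5 ± 5.17 and 40.4 ± 5.70 CPM, and Lat2, an adaptor, at 5.27 ± 1.26 and 3.21 ± 0.439 CPM. The kinase gene Btk stood at 5.23 ± 0.313 and 3.67 ± 0.591 CPM and the Src-family kinase gene Lyn at 20.7 ± 0.367 and 16.6 ± 1.74 CPM. All 4 had an unadjusted p between 0.00748 and 0.0272 and an adjusted p of 0.708 to 0.795 by edgeR. B cells and myeloid cells share several of them. Orai1, Btk and Lyn were lower in NPY-tet mice without overlap, and Lat2 overlapped. Of all genes tested, 1.98% were lower without overlap. The 12 transcription factors had a median of -0.22, with Spi1, a factor of myeloid cells and mast cells, at 33.1 ± 6.19 and 22.6 ± 5.58 CPM (unadjusted p = 0.0158, adjusted p = 0.773) and Mitf at 18 ± 4.80 and 19.5 ± 6.51 CPM. Of the histamine receptors Hrh1 and Hrh2 were tested. Hrh2 stood at 3.01, 3.04, 2.04, 2.10 and 3.61 CPM in wild-type and at 1.34, 1.22 and 1.99 CPM in NPY-tet mice, without overlap (log2 fold change -0.86, SE 0.31; unadjusted p = 0.0169, adjusted p = 0.782, edgeR). Hrh1 stood at 2.46 ± 0.311 and 2.57 ± 0.430 CPM.

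**Figure D5:**
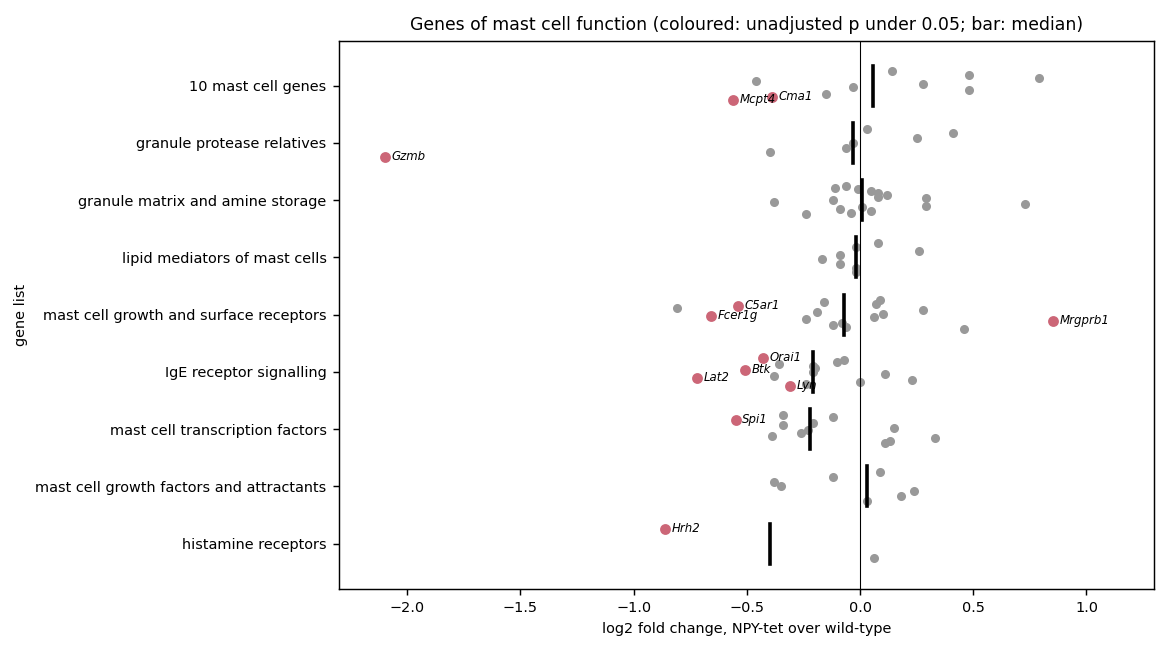
Log2 fold change (NPY-tet over wild-type) of every tested gene in the 10 mast cell genes and 8 further lists, with the median of each list as a black bar and genes at an unadjusted p under 0.05 coloured and named. List medians run from -0.40 (histamine receptors) to 0.06 (the 10 mast cell genes).

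The pattern over mice was compared with that of 13756 other genes of at least 1 CPM, as the Pearson r over 8 libraries, after subtracting genotype means, with the mean log2 CPM of the 8 members above 1 CPM. The 10 highest were Mknk2, Psmd2, Maff, Acot4, Fxr2, Cldn5, Gabarapl1, Slc27a1, Mgp and Tmem37, with r of 0.955 to 0.966. All 10 had their highest level in NPY-tet replicate 1, and without that library 0 of the 10 stayed among the 10 highest. Among the members the r with the mean of the others ran from 0.0553 for Mrgprb2 to 0.962 for Cma1.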

How the data were processed

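The authors deposited whole-number counts per Ensembl gene and FPKM for 56748 genes, 1 column per mouse. The submitters' processing notes name the build mm39 and the tools featureCounts 1.5.0-p3, HISAT2 2.0.5, CASAVA and DESeq2 1.20.0, without their roles. Libraries were poly-T selected and non-directional, per the labels' protocols, so strand was not recorded. From sample 3 on, the library names in the descriptions carry a mouse number higher by 1 than the column names and titles, with the same genotype.

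The deposited counts were fitted with edgeR 4.0.16 (R 4.3.3): filterByExpr, TMM, a robust quasi-likelihood fit on genotype over 8 libraries and a two-sided F-test, adjusted by Benjamini-Hochberg over 18495 genes. The SE is the size of the log2 fold change over the root of F. The common biological coefficient of variation was 0.318. DESeq2 1.42.0 and limma 3.58.1 were alternatives. The edgeR, DESeq2 and limma-voom fits were also run on simulated counts with planted fold changes, and no result given here rests on that run. The limma-voom fit used sample quality weights, which give deviating libraries less weight, and robust empirical Bayes. The prior count of log2 CPM was 2. The members, lists and tests were chosen with earlier results of these data known. All members were named, with up to 3 genes of smallest p from each list. Kit, Kitl, Lyn, Mitf, Ngp, Slc18a2, Srgn, Tpsg1 and the protease genes at or near 0 counts fall outside this rule and were chosen after their values were seen. Cd200r3, Prss34, Csf3r, Retnlg, Mpo, Ly6g, Cxcr2, Camp and Ltf also fall outside this rule. 0 deposited columns were left out.

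Reads can be shared between related genes. Of the 50-base stretches of the longest GENCODE M21 transcript, 5.48% for Mcpt4 occur in Cma2 or Mcpt9, 5.38% for Cma1 in Gm48934 and 2.69% for Ms4a2 in Ms4a4b, and 0% for the other members in transcripts of another gene. The transcripts of Tpsb2 and Tpsab1 were identical at 69.2% of 1123 aligned bases. Mir7007, with 0 to 5 counts per library, overlaps Cpa3. Protein sequences were not used here.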

Additional observations from a re-analysis of the deposited data

How the results depend on the processing

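Under every alternative 0 of the mast cell genes tested there passed. Tpsab1 and Ms4a2 were left out by the filter of 1 CPM, and Tpsab1 in the rRNA-poor libraries and without wild-type replicate 2 or 3, so medians there are over 8 or 9 genes. Mcpt4 stayed lower (-0.71 to -0.37, adjusted p 0.0609 to 1) and Mrgprb2 higher (0.02 to 0.92). Over all genes the count of 1 became 2 with library totals, 21 with no filter, 68 by DESeq2, 3 by limma-voom, 2 by limma on log2(FPKM + 1) or (FPKM + 0.1), 11 with the rRNA set as a term, 2 with the adipocyte score as a term, 332 and 227 in the rRNA-rich and rRNA-poor libraries alone, where 1 arm is 1 mouse assumed to vary like the other, and 1 to 8 with 1 library left out (8 without NPY-tet replicate 3). The members' median moved from 0.06 to -0.20 with the fibroblast score, to 0.46 and -0.23 in those library sets, and ranged from -0.31 (without NPY-tet replicate 1) to 0.16 with 1 left out. Library totals shifted the median of all genes by 0.17.

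Other signs turned without passing. Tpsb2 was at 0.01 and Cpa3 at 0.13 with library totals, and Cpa3 at 0.11 with the rRNA set. With the hair shaft score Ms4a2 was at -0.11 and Fcer1a at 0.24. With the adipocyte score Ms4a2, Fcer1a and Gata2 were at -0.54, 0.09 and -0.01. With the fibroblast score Tpsab1, Ms4a2 and Gata2 were at -0.24, -0.12 and -0.01. In rRNA-rich libraries Cma1, Tpsb2, Cpa3 and Fcer1a were at 0.01, 0.38, 0.25 and 0.26, and in rRNA-poor ones Hdc and Gata2 at -0.23 and -0.20. With 1 library left out Cpa3 ranged from -0.21 to 0.08, Tpsab1 from -0.36 to 0.79, Ms4a2 from -0.25 to 0.61, Gata2 from -0.06 to 0.30 and Tpsb2 from -0.48 to 0.11. The cause was not tested.

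Same-numbered replicates deviated together with r of -0.04, -0.11 and 0.30 over genes. Differently numbered pairs were not set beside them, so whether they share more than a number was not tested. With the replicate as a block in replicates 1 to 3, 1 gene and 0 members passed, the median was -0.14 and Tpsab1 -0.27. Without the block, added after the data were seen, 2 genes passed and Tpsab1 was at -0.11. Of the 10 genes most like the members 2 stayed with genotype means kept and 0 to 6 with 1 library left out, and 4 of 10 members kept their rank by CPM. Depth limits Tpsab1, Ms4a2 and Fcer1a.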
